A study of Mus musculus with 15 samples.

Results

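Adult skeletal muscle genes were followed through 15 mouse mammary tumours. The 43 genes are the rows of the deposited expression table whose symbols match a list of muscle proteins, and all 43 listed symbols were found among its 17271 genes. By role, 8 encode thick filament proteins, 8 thin filament proteins, 11 proteins of the Z-disc and its scaffold, 10 calcium handling proteins and 6 enzymes or carriers of energy metabolism. Of the 43, 14 are typical of fast fibres, 6 are typical of slow fibres and 23 were put in neither list.

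All 15 tumours are labelled p53-null, which means that the tumour suppressor p53 is lost in every group compared, and BALB/c, an inbred white mouse strain. They belong to 4 models. Model 2151R has 4 samples, titled 2151R-5310, 53ca, NT2 and NT (replicates 1 to 4), T11 has 1, and 2225L has 2, titled T-Vivo (replicate 1) and ROSEN (replicate 2). Model 2208L has 8 samples, of which 4 are marked PBS (DH659, DH662, DH677 and DH678, replicates 1 to 4), 3 are marked 3day nt (KM58, KM59 and KM63, replicates 1 to 3) and 1 is marked ROSEN. The labels give no age, no tumour site and no account of how the tissue was taken, and they leave 2151R-5310, 53ca and nt unexplained. Each title ends in a number after CP or ROSEN, read here as a library number and its prefix. The titles themselves do not say so. Nothing says that the samples of a model came from separate animals, so the p-values below measure only the spread between these samples.

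A striated muscle fibre contracts when thick filaments of myosin slide along thin filaments of actin, both held in register by the Z-disc. Calcium released from the sarcoplasmic reticulum binds troponin on the thin filament and starts the contraction, and a calcium pump ends it. Fast and slow fibres build these parts from different members of the same gene families, and slow fibres hold more myoglobin and rely more on oxidative metabolism. Skeletal muscle is not a component of mammary epithelium.

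Each value is a log2 expression value from which the authors subtracted a level of the same gene, so values compare samples within a gene and do not rank genes against each other. The table holds no read counts, and depth is unknown. Sample medians over all genes ran from -0.29 to 0.10. The labelled tissue was compared with 8 epithelial genes, whose median deviation from their own gene means was between 1.96 and 2.86 in the samples of 2208L and 2225L, between -4.51 and -3.22 in 2151R and -8.17 in T11. At 727 genes (4.21%), 10 of the 43 among them, samples share 1 exactly equal value whose meaning is not stated in the sources used here. In RNA from a whole tumour, fewer muscle cells and less muscle RNA per cell cannot be told apart.

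3 samples stood above the rest. For each gene a deviation was taken as its value minus its mean over the 15 samples. The median deviation over the 43 genes was 7.67 in KM58, 7.13 in KM63 and 3.95 in NT2, and 0.80 in DH659, the next sample. Behind it came T-Vivo of 2225L (0.27), T11 (0.23), DH662 (0.08) and KM59 (-0.65). The lowest 7 samples lay between -2.21 in the ROSEN sample of 2225L and -3.24 in the ROSEN sample of 2208L. KM58 had the highest value of all 15 samples at all 43 genes. KM63 was among the top 3 samples at all 43, and NT2 at 32.

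**Figure D1:**
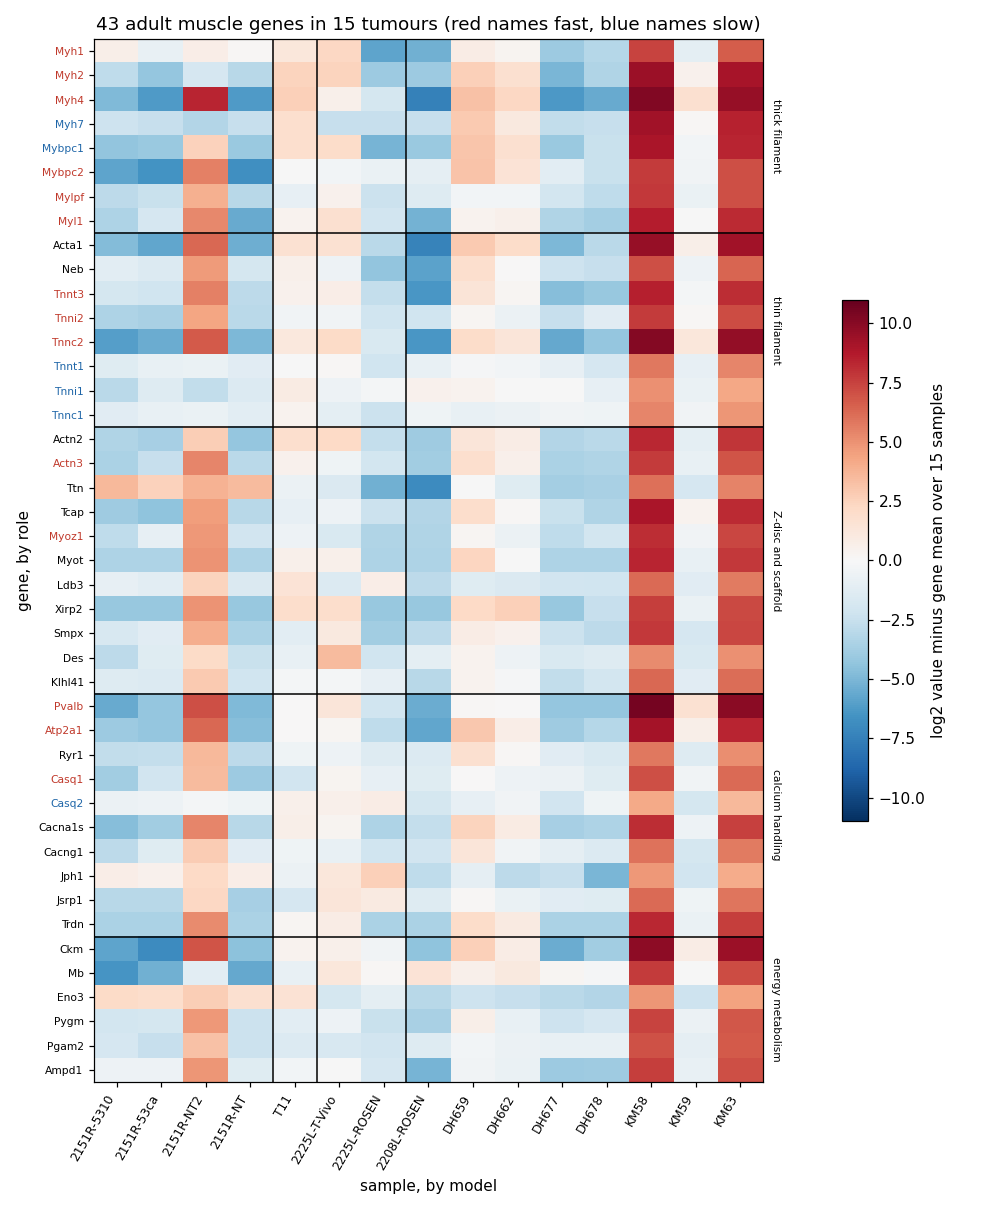
The heat map shows each of the 43 genes (rows, grouped by role) in each of the 15 samples (columns, grouped by model) as the log2 value minus the gene's mean over the samples. Red row names mark fast fibre genes, blue ones slow fibre genes and black ones neither. KM58 and KM63 are red in every row, while NT2 is red in most rows and pale or blue at the slow genes other than Mybpc1.

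KM58, KM63 and NT2 are called the muscle-rich samples below. They were singled out because muscle genes are high in them, so their differences from other samples are a description and carry no test. A rise is the value in a muscle-rich sample minus the mean of the other samples of its model, which are 2151R-5310, 53ca and NT for NT2 and the 6 samples of 2208L other than KM58 and KM63 for the other two. In NT2, 33 of the 43 genes rose by at least 2 log2 units, where 1.31% of all genes did, and the median rise was 6.45 (87.5-fold). In KM58 all 43 rose by that much, where 5.99% of all genes did, with a median of 9.02 (518-fold). In KM63 all 43 did, where 3.97% of all genes did, with a median of 8.41 (339-fold). The median rise over all genes was -0.07, 0.07 and 0.07 in the same order. Since muscle genes chose the samples, nothing is read from these counts. In NT2 the rise just above the threshold was that of Ldb3 (3.70) and the rise just below it that of Jph1 (1.58), followed by Myh2 (1.52). With 53ca alone as the reference, 34 genes passed. After quantile normalization of the samples, which forces one distribution on them, the medians were 6.04, 6.71 and 6.57, so that NT2 lay closer to KM58 and KM63, and the counts at that threshold were 33, 43 and 43.

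The thick filament genes had median rises of 6.73 in NT2, 9.93 in KM58 and 9.29 in KM63. Myh4, the fast type IIb myosin heavy chain, was 10.89 in NT2 against -2.38, -3.77 and -3.77 in the other samples of 2151R. It was 12.70 in KM58 and 12.02 in KM63 against -5.00 to 5.69 (median 0.56) in the other 6 samples of 2208L. Its rise of 14.20 in NT2 was the largest of all 17271 genes, although 2 of the 3 values below it are a repeated value and so give no fold. Myh7, the slow type I heavy chain, behaved otherwise. It was -0.97 in NT2, below the 0.00, -0.33 and -0.33 of the other samples of 2151R, and 11.50 in KM58 and 10.74 in KM63 against -0.44 to 5.14 (median 1.01). The other fast heavy chains also stayed under a rise of 2 in NT2 and rose by far more in KM58 and KM63. Unlike Myh7, they lay above the other samples of 2151R in NT2. Myh2 (type IIa) was 0.38 in NT2 against -0.56, -2.03 and -0.81, and Myh1 (type IIx) was 1.53 against 1.47, 0.00 and 0.97. In KM58 Myh2 was 11.61 and Myh1 8.25, and in KM63 they were 11.27 and 7.46. The other 6 samples of 2208L held Myh2 between -2.78 and 4.81 and Myh1 between -4.42 and 1.63. So NT2 carried a high value of 1 of the 4 adult heavy chains listed, and KM58 and KM63 of all 4. Myh2, Myh1 and Myh4 are closely similar neighbours on chromosome 11, and how reads shared by them were assigned is not given in the sources used here.

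The stretches before the start sites of these 2 heavy chain genes are shown because Myh4 and Myh7 are the farthest apart of all fast and slow counterparts in NT2. Each is the 250 bases before an annotated start in RefSeq (GRCm38.p6), 5' to 3' on the gene's strand. They are Myh4 at chr11:67237562-67237811, plus strand, and Myh7 at chr14:54994627-54994876, minus strand. Capitals mark CAGCTG (a form of the E-box CANNTG that myogenic factors bind), CATTCC (the core of the site bound by TEAD factors), TATAAA, a MEF2 site or a CArG box, on either strand.
Myh4: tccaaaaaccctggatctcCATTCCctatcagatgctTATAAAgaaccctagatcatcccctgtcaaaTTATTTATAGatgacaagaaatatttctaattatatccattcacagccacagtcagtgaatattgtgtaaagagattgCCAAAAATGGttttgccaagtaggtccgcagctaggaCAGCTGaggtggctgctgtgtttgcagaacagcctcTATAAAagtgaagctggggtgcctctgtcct
Myh7: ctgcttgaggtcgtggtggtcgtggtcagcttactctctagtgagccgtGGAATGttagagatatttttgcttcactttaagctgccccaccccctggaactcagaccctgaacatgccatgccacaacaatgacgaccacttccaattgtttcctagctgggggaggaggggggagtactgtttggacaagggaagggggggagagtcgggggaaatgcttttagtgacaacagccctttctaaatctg
In this window Myh4 holds all 5 of these and Myh7 holds CATTCC only, on the reverse strand. RefSeq lists another start for Myh7 further downstream, whose window holds none of them.

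The 2 myosin binding proteins rose in every muscle-rich sample. Mybpc2, the fast form, was 6.29 in NT2 against -5.07, -5.84 and -6.01, a rise of 11.93. It was 8.40 in KM58 and 7.84 in KM63 against -1.72 to 3.85 (median 0.00), rises of 7.74 and 7.18, the smallest of the thick filament group. Mybpc1, the slow form, which fast fibres also make, was 3.43 in NT2 against -3.46, -3.21 and -3.21. It was 9.85 in KM58 and 9.31 in KM63 against -3.21 to 3.92. It was the only one of the 6 slow genes past 2 log2 units in NT2. The fast light chains Mylpf and Myl1 rose by 6.74 and 8.89 in NT2, 9.02 and 10.53 in KM58, and 8.35 and 10.06 in KM63.

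Thin filament genes had median rises of 6.90, 8.69 and 8.10 in NT2, KM58 and KM63. Acta1, the skeletal alpha-actin of the thin filament, was 6.94 in NT2 against -4.19, -5.17 and -4.76, and 10.13 in KM58 and 9.83 in KM63 against -6.74 to 3.48 (median -0.57). Neb, the giant protein that runs along the actin filament, rose by 6.19, 8.66 and 7.97. The troponin complex, which makes the filament sensitive to calcium, split by fibre type in NT2. Tnnc2, the fast troponin C, was 7.44 in NT2 against -5.39, -4.72 and -4.20. Tnnc1, its slow and cardiac counterpart, was -0.33 against -0.79, -0.38 and -0.70. These 2 genes differed in rise by 11.92 log2 units in NT2.

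In KM58 and KM63 both troponin C genes were high. Tnnc2 was 10.83 and 10.40 against -5.70 to 2.76 in the other 6 samples of 2208L, and Tnnc1 was 5.78 and 5.27 against -0.35 to 0.10. The narrow range of Tnnc1 outside the muscle-rich samples (SD 0.17, n = 6) was the smallest SD of the 43 genes there. The windows before the starts of both genes are shown beside that of Acta1, with capitals as above. They are Acta1 at chr8:123894776-123895025 (minus strand), Tnnc2 at chr2:164779735-164779984 (minus strand) and Tnnc1 at chr14:31208062-31208311 (plus strand), from RefSeq on GRCm38.p6.
Acta1: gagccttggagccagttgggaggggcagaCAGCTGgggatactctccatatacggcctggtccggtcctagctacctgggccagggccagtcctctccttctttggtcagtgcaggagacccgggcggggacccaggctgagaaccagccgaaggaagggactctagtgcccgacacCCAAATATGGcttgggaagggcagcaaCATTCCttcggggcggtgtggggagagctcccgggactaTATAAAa
Tnnc2: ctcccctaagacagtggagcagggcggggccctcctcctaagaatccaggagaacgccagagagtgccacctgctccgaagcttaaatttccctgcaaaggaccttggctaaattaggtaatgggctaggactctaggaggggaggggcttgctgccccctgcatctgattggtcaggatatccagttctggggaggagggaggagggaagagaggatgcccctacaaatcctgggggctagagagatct
Tnnc1: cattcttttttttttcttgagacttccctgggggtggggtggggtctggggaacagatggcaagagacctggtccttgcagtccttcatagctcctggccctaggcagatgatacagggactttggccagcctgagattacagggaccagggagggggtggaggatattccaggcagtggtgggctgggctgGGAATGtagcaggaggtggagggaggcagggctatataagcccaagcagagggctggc
Acta1 holds a CAGCTG, a CArG box, a CATTCC and a TATAAA. The window of Tnnc2, with the larger rise, holds none of the marked letters, and that of Tnnc1 holds CATTCC on the reverse strand.

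The other troponins repeated the split. Tnnt3, the fast troponin T, was 6.58 in NT2 against -0.96, -1.21 and -1.83, and Tnnt1, the slow form, was -0.43 against -1.04, -0.52 and -0.92. Tnni2, the fast inhibitory subunit, was 4.99 against -2.71, -2.85 and -2.32, and Tnni1, the slow one, was -2.68 against -2.97, -1.42 and -1.54. The fast subunits of NT2 lay above all other samples of 2151R by wide margins, and the slow ones within or just above their range. In KM58 and KM63 Tnnt3 was 9.58 and 9.11 against -5.36 to 2.39, and Tnnt1 was 6.12 and 5.64 against -1.57 to 0.21. Tnni2 was 8.35 and 7.86 against -1.85 to 0.93. Tnni1 was 5.03 and 4.27 against -0.86 to 0.47, rises of 5.16 and 4.41 that were the smallest of the 43 genes in both samples.

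The Z-disc and scaffold genes rose together, with 10 of 11 past 2 log2 units in NT2 and all 11 in the other muscle-rich samples. Median rises were 6.45, 9.16 and 8.41. Actn2, an alpha-actinin that crosslinks actin at the Z-disc of all fibres, was 2.91 in NT2 against -3.12, -3.45 and -4.06. Actn3, the alpha-actinin of fast fibres, was 5.92 against -2.95, -2.03 and -2.41. Both lay above every other sample of 2151R. In KM58 and KM63 Actn2 was 8.53 and 8.11 against -3.68 to 1.5, and Actn3 was 8.20 and 7.46 against -3.27 to 2.42. Xirp2, an actin-binding repeat protein, was 7.48 in NT2, where all 3 other samples of 2151R lay at the repeated value of -1.69. Myot, a Z-disc protein, and Trdn, of the calcium release complex, were 8.28 and 8.64 in NT2 with all 3 others at a repeated 0.00, so no fold is given for these 3 genes.

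Titin was the exception. Ttn, which encodes the spring that spans from Z-disc to M-line, was 5.72 in NT2 against 5.44, 4.37 and 5.36, a rise of 0.66 that became -0.17 after quantile normalization. It was 7.92 in KM58 and 7.33 in KM63 against -5.08 to 1.85 (median -0.87). Titin was therefore high in every sample of 2151R and not in NT2 alone. Des, the muscle intermediate filament desmin, was 2.68 in NT2 against -2.35, -0.76 and -1.89, and 5.76 in KM58 and 5.56 in KM63 against -1.12 to 0.99. Its rises of 6.21 and 6.0 were the smallest of this group in the 2208L samples. Tcap, which caps titin at the Z-disc, was 6.43 in NT2 against -2.12, -2.62 and -1.21. It was 10.84 and 10.06 in KM58 and KM63 against -1.5 to 3.77. The other 4 genes of the group, Myoz1, Ldb3, Smpx and Klhl41, rose by 3.70 to 6.72 in NT2, 7.76 to 9.64 in KM58 and 7.57 to 8.81 in KM63.

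The calcium handling genes had median rises of 6.56, 7.64 and 6.89. Pvalb, the calcium buffer of fast fibres, was 9.45 in NT2 against -3.19, -1.93 and -2.54. It was 12.87 in KM58 and 12.29 in KM63 against -3.17 to 4.01 (median 0.22), and its rises of 12.57 and 11.99 were the largest of the 43 genes in both. Atp2a1, the calcium pump of fast fibres, was 8.12 in NT2 against -2.19, -2.44 and -2.84, and 10.92 and 10.22 in KM58 and KM63 against -3.94 to 4.77. The calsequestrins, which store calcium in the reticulum, split as the troponins did. Casq1, the fast form, was 4.65 in NT2 against -2.66, -0.95 and -2.83, and Casq2, the slow and cardiac form, was -0.31 against -0.76, -0.66 and -0.60. In KM58 and KM63 Casq1 was 8.26 and 7.42 against -0.14 to 1.17, and Casq2 was 4.06 and 3.45 against -2.25 to -0.54. Casq2 had the smallest rises of this group in all 3 muscle-rich samples. Of the release machinery, the channel Ryr1 and its voltage sensor Cacna1s rose by 6.33 and 9.25 in NT2, 6.49 and 9.32 in KM58, and 5.80 and 8.69 in KM63. Cacng1, Jsrp1 and Jph1, a channel subunit and 2 proteins of the junction between membrane and reticulum, rose by 4.56, 5.49 and 1.58 in NT2 and by 6.90, 7.10 and 7.49 in KM58.

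Of the energy genes, 5 of 6 passed 2 log2 units in NT2 and all 6 in KM58 and KM63, with median rises of 5.59, 8.35 and 7.89. Ckm, the muscle creatine kinase that buffers ATP, was 8.64 in NT2 against -4.03, -5.21 and -2.80. It was 11.58 in KM58 and 11.11 in KM63 against -3.74 to 4.36. Mb, myoglobin, was -1.30 in NT2 against -6.62, -5.37 and -5.71, a rise of 4.60. It was 7.60 and 7.03 in KM58 and KM63 against -0.22 to 1.42, so the value in NT2 lay below every sample of 2208L. Eno3, the muscle form of the glycolytic enzyme enolase, was 1.37 in NT2 against 0.75, 0.55 and 0.41, and 3.51 and 3.05 in KM58 and KM63 against -4.53 to -3.62. Like titin, it was already high throughout 2151R. Pygm, Pgam2 and Ampd1, of glycogen breakdown, glycolysis and the purine cycle, rose by 6.84, 5.48 and 5.69 in NT2, 8.82, 7.88 and 10.08 in KM58, and 8.22, 7.56 and 9.58 in KM63.

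Fast and slow genes were then set against each other. In NT2 the median rise was 8.15 over the 14 fast genes and 0.33 over the 6 slow genes, 7.82 log2 units apart. In KM58 the medians were 10.08 and 6.24, and in KM63 9.31 and 5.75, which are 3.83 and 3.56 apart. Against KM59 alone these gaps were 2.07 and 1.89. A rise also depends on the level of its gene in the reference samples. In those of 2208L Tnnc1 had an SD of 0.17 and Tnnc2 one of 3.91. How far such levels set the gaps was not tested. Of the fast genes 12 of 14 rose by at least 2 log2 units in NT2, all but Myh1 and Myh2, and of the slow genes 1 of 6 did. Deviation medians gave the same order: 5.33 for fast and -0.76 for slow genes in NT2, 8.37 and 5.58 in KM58, and 7.72 and 5.08 in KM63. In 6 of the 7 lowest samples the fast median lay below the slow one, with -4.59 and -1.39 in the ROSEN sample of 2208L, while the ROSEN sample of 2225L had -2.19 and -2.31. T11 was the only one of the first 8 samples in the order where the slow median (0.75) lay above the fast one (0.23).

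**Figure D2:**
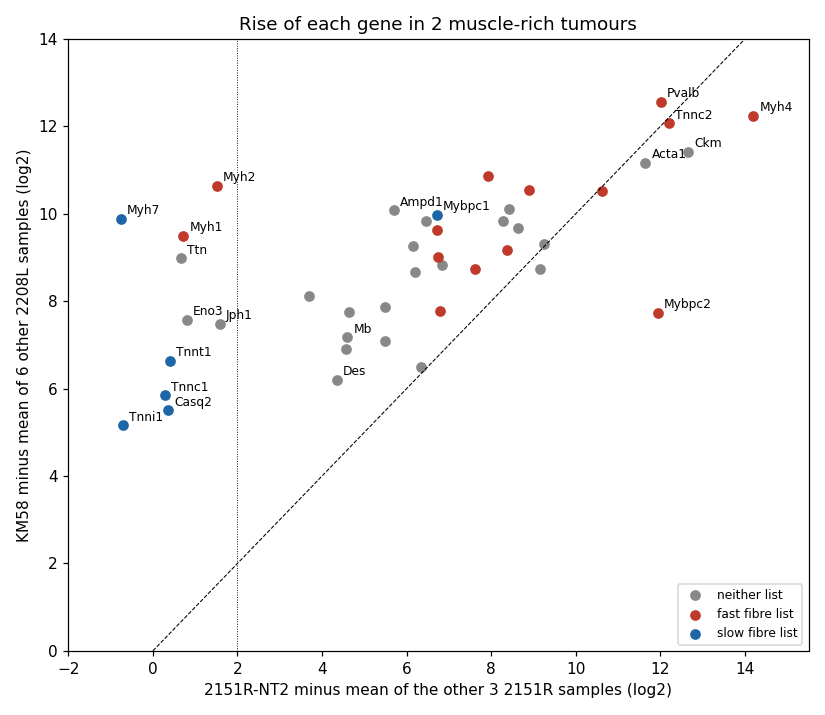
Each point is 1 of the 43 genes, with its rise in NT2 on the x axis and its rise in KM58 on the y axis, both in log2 units. The dashed line marks equal rises and the dotted line a rise of 2 in NT2. Slow genes other than Mybpc1 stand at the left, with rises of at least 5.16 in KM58 and under 2 in NT2, together with Myh1, Myh2, Ttn, Eno3 and Jph1.

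Counterparts of the same protein gave the comparison without mixing families. Fast minus slow in NT2 was 14.95 for Myh4 and Myh7, 11.92 for the troponin C genes, 8.32 for troponin I, 7.52 for troponin T, 6.44 for the calsequestrins and 5.21 for the myosin binding proteins. All 6 differences were above 0 in NT2. The heavy chain pair used Myh4, the fast heavy chain with the largest rise in NT2, and its size depends on that choice. Myh1 and Myh2 rose there by 0.72 and 1.52, against -0.75 for Myh7. In KM58 they were 2.35, 6.22, 3.57, 4.23, 2.29 and -2.24 in the same order, and in KM63 2.43, 6.29, 3.83, 4.24, 2.06 and -2.27. Of these 6 pairs, the myosin binding proteins were thus the one in which the slow gene rose more in KM58 and KM63. Outside the pairs, Myh1 also rose less than Myh7, by 9.49 against 9.89 in KM58 and 8.70 against 9.13 in KM63. Myh2 rose more than Myh7, by 10.64 and 10.30. As the reference samples of 2151R and of 2208L differ, KM58 was also set directly against NT2. KM58 was higher by 6.11 to 12.47 at the slow members of these 6 pairs other than Casq2 (4.37), and by 1.80 to 3.60 at the fast ones.

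**Figure D3:**
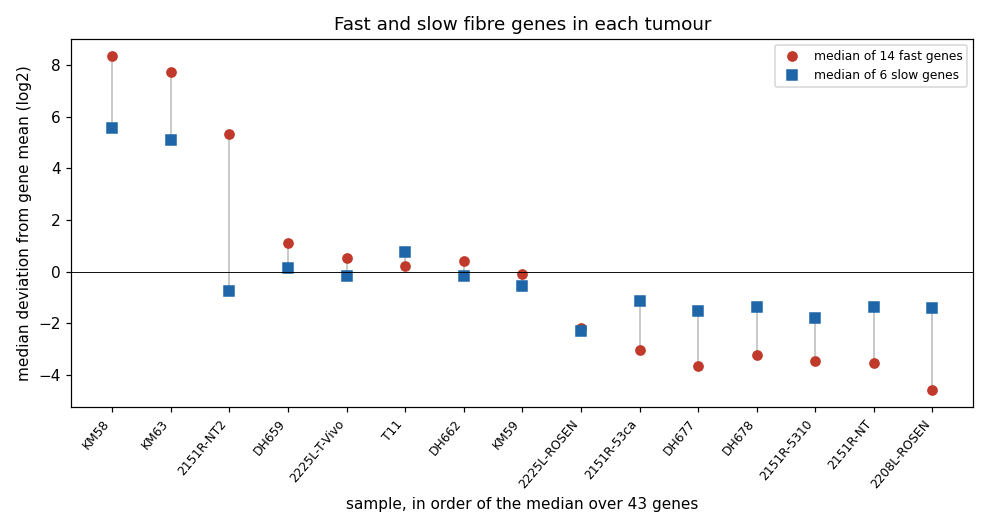
For each sample, in order of the median over all 43 genes, the red circle is the median deviation (log2) of the 14 fast genes and the blue square that of the 6 slow genes. NT2 is the sample where they lie farthest apart, at 5.33 and -0.76, and in KM58 both are high, at 8.37 and 5.58.

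Slow genes outside the 43 were looked at in another list of 6. Myl2, the slow ventricular regulatory light chain, had rises of 1.91 in NT2, 10.07 in KM58 and 9.13 in KM63. Myl3, the slow essential light chain, had rises of 0.10, 9.13 and 8.39. Myoz2, the slow counterpart of Myoz1, had one repeated value in all 4 samples of 2151R and rose by 8.70 and 8.12 in KM58 and KM63. The other 3, Atp2a2, Tpm3 and Myh7b, are made in many tissues or at low level in muscle and had rises under 1 in all 3 muscle-rich samples. None of the 6 reached 2 log2 units in NT2.

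KM58 and KM63 carried nearly the same profile of the 43 genes at 2 levels. KM58 was above KM63 at all 43 genes, by a median of 0.56 log2 units, from 0.15 (Klhl41) to 0.84 (Casq1), with an SD over genes of 0.17. Over all genes 47.7% were higher in KM58, and the median difference was -0.01. Fast and slow genes were offset alike, with medians of 0.62 and 0.57. A wider list of 55 adult muscle genes, described below, was less even. There KM58 was higher at 46, and the difference ran from -0.67 (Ankrd2) to 1.04 (Mybph) with an SD of 0.38. The offset between KM58 and NT2 was uneven. Its median was 3.37, from 1.80 (Myh4) to 12.47 (Myh7), with an SD of 2.34, and the medians were 3.38 for fast and 6.49 for slow genes. Largest after Myh7 were Myh2 (11.23), Mb (8.89), Tnni1 (7.71) and Myh1 (6.72). Over all genes this difference had an SD of 1.77. Within the model of KM58, the SD over all genes was 0.53 for KM58 minus KM63 and 1.17 for KM58 minus KM59. NT2 and KM58 differ in model and in library number range, and the cause of the SD of 1.77 was not tested.

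**Figure D4:**
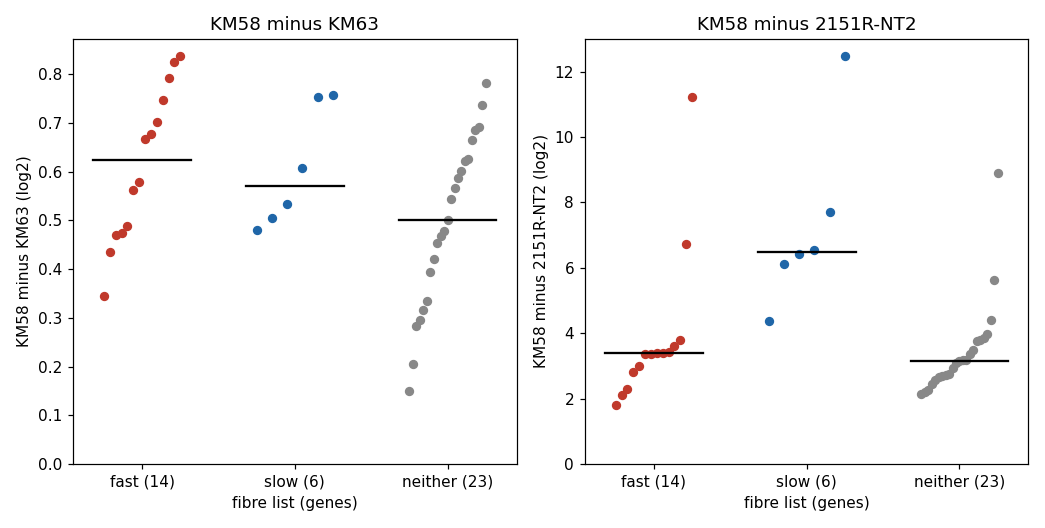
Points are single genes, placed by list (fast, slow or neither) and sorted by value within it, and bars are list medians. The left panel gives KM58 minus KM63 and the right panel KM58 minus NT2, in log2 units on axes of different length. On the left all 43 genes lie between 0.15 and 0.84, and on the right they run from 1.80 to 12.47.

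Below the muscle-rich samples, 5 samples held intermediate values. Within 2208L, DH659, DH662 and KM59 lay above DH677, DH678 and the ROSEN sample at many of the genes. DH659 was at least 2 log2 units above the highest of those 3 at 29 of the 43 genes, where 0.556% of all genes were. For DH662 the count was 24 (0.394% of all genes) and for KM59 it was 18 (0.492%). These samples were ordered by the same genes, so the counts carry no test. Fast genes made up 11, 10 and 9 of these counts, of 14, and slow genes 2 each, of 6. The largest gaps were all at Myh4, at 8.78, 7.87 and 7.29. The smallest were at Mb for DH659 (-1.0) and KM59 (-1.54) and at Tnni1 for DH662 (-0.52), genes at which the ROSEN sample of 2208L was the highest of the 3 reference samples. Mb was 1.42 in that sample, against -0.22 to 0.92 in the other 5 samples that are not muscle-rich. The slow heavy chain Myh7 was 5.14 in DH659, 3.29 in DH662 and 2.34 in KM59, against -0.44 to -0.33 in DH677, DH678 and the ROSEN sample, and Mybpc1 was the other slow gene counted.

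In 2225L the T-Vivo sample was at least 2 log2 units above the ROSEN sample at 21 of the 43 genes, where 5.53% of all genes were. The largest gap was at Myh1 (8.13) and the lowest at Ldb3 (-2.23). Heavy chains differed within T-Vivo. Myh2 was 4.70, Myh1 3.12 and Myh4 3.07, while Myh7 lay at its repeated value of -0.33, shared with 5 other samples. T11, with 1 sample, had Myh4 at 5.08, Myh2 at 4.66, Myh7 at 4.07 and Myh1 at 2.07, and its Tnni1 (0.95) was above all samples of 2151R, 2225L and 2208L other than KM58 and KM63. Des was 4.07 in T-Vivo, above every sample but KM58 and KM63, and -1.64 in the ROSEN sample of 2225L.

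The models were compared with limma, adjusted over all 17271 genes by Benjamini-Hochberg, and a gene is called at an adjusted p under 0.05. Between 2151R and 2208L 0 of the 43 genes were higher in 2151R, where 26.1% of all genes were, and 2 were lower, where 22.7% were. Over the 43 the median difference was -2.10 and over all genes 0.10. Mb was -6.62, -5.37, -1.30 and -5.71 in 2151R, and -0.22 to 7.60 with a median of 0.67 in 2208L. The groups did not overlap, and the difference was -6.89 (SE 1.61, limma adjusted p 0.00317). Tnni1 was -2.97, -1.42, -2.68 and -1.54 in 2151R, and -0.86 to 5.03 with a median of 0.18 in 2208L. The groups did not overlap either, and the difference was -3.22 (SE 1.05, limma adjusted p 0.0216), a call that was lost without 2151R-5310 (adjusted p 0.0674) or without NT2 (0.0579). Model and library number range cannot be told apart, since the 4 samples of 2151R have a range of their own.

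In 2225L 0 of the 43 genes were called against 2208L, where 15.6% of all genes were higher and 17.3% lower. None of the 43 had an unadjusted p under 0.05, where 42.9% of all genes did. The smallest p were those of Tnnc1 (difference -2.63, SE 1.52, limma adjusted p 0.207) and Myh7 (-4.32, SE 2.80, limma adjusted p 0.261). Against 2151R, 0 of the 43 were called, where 22.8% of all genes were higher in 2225L and 25.8% lower, and 2 had an unadjusted p under 0.05, where 55.2% of all genes did. Mb was higher in 2225L by 5.30 (SE 2.28, limma adjusted p 0.0710), and Ttn differed by -6.79 (SE 2.94, limma adjusted p 0.0722). In neither comparison do these values show that the models have equal levels.

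The same models were compared over the 12 other samples, without NT2, KM58 and KM63. As these 3 were left out for their muscle genes, the spread of these very genes is narrowed by that choice. Between 2151R and 2208L (3 and 6 samples), 3 of the 43 were then higher in 2151R, where 23.6% of all genes were, and 8 lower, where 19.2% were. The higher ones were Ttn, 5.06 ± 0.60 (SD) against -1.06 ± 2.43, a difference of 6.12 (SE 1.34, limma adjusted p 0.00414), Eno3 with 4.63 (SE 0.27, 3.71e-07) and Jph1 with 3.34 (SE 0.69, 0.00294). The lower ones were led by Mb, -5.90 ± 0.65 against 0.42 ± 0.64, a difference of -6.32 (SE 0.43, limma adjusted p 1.12e-06). Mybpc2 differed by -6.30 (SE 1.02, 0.000627) and Casq1 by -2.62 (SE 0.47, 0.00122), and Jsrp1, Tnni2, Ryr1, Tnni1 and Pgam2 by -2.37 to -1.40. In both directions the share of the 43 called was below that of all genes, so these calls are given as single genes and not as a result about the group.

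Over these 12 samples, 4 of the 43 genes were higher in 2225L (2 samples) than in 2208L (6 samples), where 15.9% of all genes were, and 2 lower, where 17.6% were. Jph1 differed by 4.64 (SE 0.80, limma adjusted p 0.00167), Casq2 by 1.99 (SE 0.47, 0.00945), Jsrp1 by 1.97 (SE 0.39, 0.00369) and Eno3 by 1.23. Tnnc1 differed by -1.23 (SE 0.30, 0.0108) and Pgam2 by -1.09 (SE 0.29, 0.0173). Without the ROSEN sample of 2225L, Casq2, Tnnc1 and Pgam2 were no longer called, and the differences were 1.89, -0.58 and -0.93. Against 2151R (3 samples), 5 genes were higher in 2225L, where 21.7% of all genes were, and 2 lower, where 25.8% were. Mb was higher by 6.45 (SE 0.55, limma adjusted p 8.93e-06), Mybpc2 by 5.85 (SE 1.31, 0.00452) and Jsrp1 by 4.34 (SE 0.44, 2.62e-05), followed by Casq1 and Tnni1. Ttn differed by -6.62 (SE 1.73, 0.00995) and Eno3 by -3.40 (SE 0.35, 3.13e-05). Ttn was not called without the ROSEN sample of 2225L, with -4.79 (adjusted p 0.100), since T-Vivo was at 0.27 and ROSEN at -3.40. With that sample left out, T-Vivo is the only sample of 2225L, so calls are not counted.

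**Figure D5:**
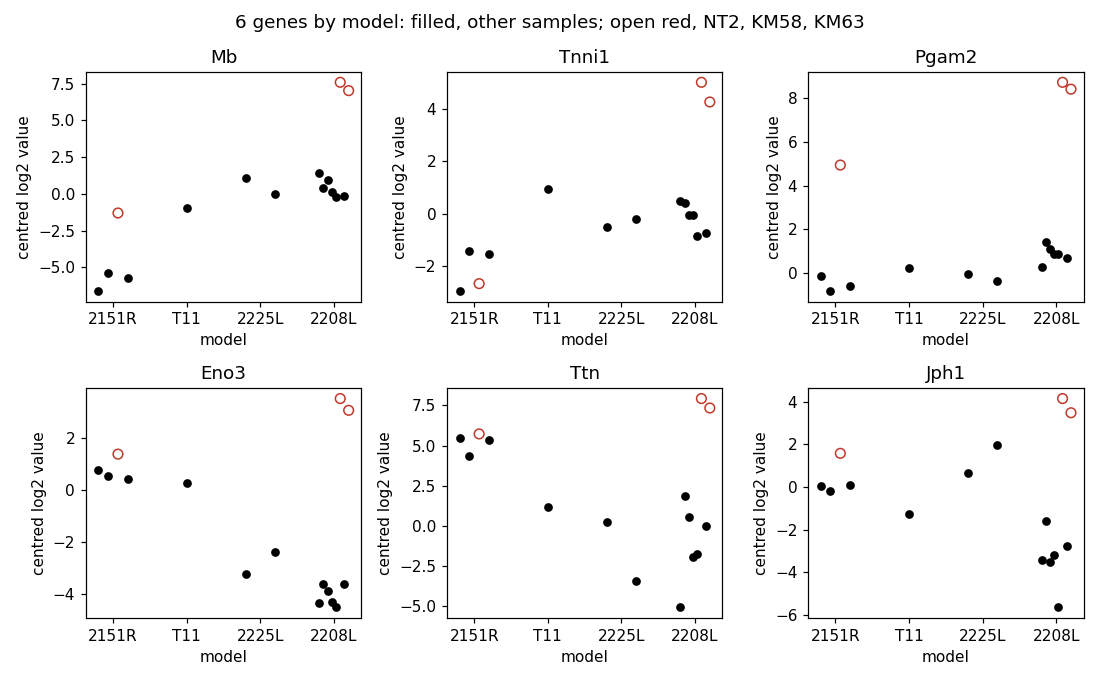
Centred log2 values of 6 genes by model, with filled points for the 12 other samples and open red points for NT2, KM58 and KM63. Points are spread sideways only to be seen. Ttn and Eno3 are high in every sample of 2151R, Mb is low in all 4 of them and lowest in 2151R-5310 (-6.62), and the open points of 2208L are above all filled ones in each panel.

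Within 2208L the samples marked PBS were compared with those marked 3day nt. All 43 genes had a lower mean in PBS, with a median difference of -5.69 against -0.05 over all genes. Of them 2 were called lower, where 16.5% of all genes were, and 0 higher, where 17.4% were. Pvalb was 2.48, 2.38, -1.93 and -1.93 in PBS and 12.87, 4.01 and 12.29 in 3day nt. These groups did not overlap, and the difference was -9.48 (SE 2.43, limma adjusted p 0.0262). Tnni2 was 0.93, 0.00, -1.85 and -0.60 in PBS and 8.35, 0.79 and 7.86 in 3day nt, so KM59 lay within the PBS range, and the difference was -6.05 (SE 1.86, limma adjusted p 0.0453). Single samples decided the count. Without KM59 all 43 genes were called lower in PBS, where 18.0% of all genes were, but the 3day nt samples are then KM58 and KM63, which were named for these genes, so nothing is read from that count. None was called lower without KM58, KM63, DH677 or DH678, where 7.1%, 5.89%, 15.4% and 16.3% of all genes were. Without DH659 or DH662 1 was, where 10.7% and 10.3% of all genes were. With KM59 as the only 3day nt sample 0 of the 43 were called, where 0.440% of all genes were higher and 0.127% lower, and 0 had an unadjusted p under 0.05, where 19.98% of all genes did. The lone sample is assumed to vary like the PBS samples. The differences were then -3.76 for Pvalb (adjusted p 0.401) and -1.17 for Tnni2 (adjusted p 0.565). The PBS and 3day nt samples have separate library number ranges, so subset and range cannot be told apart.

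A wider list of 55 adult muscle genes outside the 43 moved with them in part. In NT2 31 of the 55 rose by at least 2 log2 units (median 3.02), in KM58 52 (median 7.44) and in KM63 51 (median 7.05). In NT2 the largest rises were those of Eef1a2, the muscle and nerve form of elongation factor 1 alpha (9.82), Myom2, an M-line protein of fast fibres (8.36), and Art1 (8.07). The smallest were at Csrp3 (-0.93), a muscle LIM protein, Fbxo32 (-0.32), a ubiquitin ligase of muscle wasting, and Myom3 (-0.30). In KM58 and KM63 the rise was 9.65 and 10.02 for Csrp3, 8.07 and 7.53 for Myom3, and -0.68 and -0.54 for Fbxo32. Ckmt2, the mitochondrial creatine kinase of muscle, had the largest rise of this list in KM58 (11.04) and KM63 (10.57). Tpm1 and Cacnb1, which other tissues also make, had rises of 1.51 and 1.82 in KM58 and 1.32 and 1.15 in KM63.

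Markers of other cell types were read in the same samples. Of 10 adipocyte genes, 2 rose by at least 2 log2 units in NT2, 10 in KM58 and 8 in KM63, with median rises of 1.26, 3.90 and 3.70. Against KM59 alone, the 43 muscle genes were higher by a median of 8.39 in KM58 and 7.73 in KM63, while the adipocyte genes were higher by 0.45 and 0.24. Against 53ca alone, NT2 was higher by 6.14 at the muscle genes and by -0.29 at the adipocyte genes. Against NT alone it was higher by 6.90 at the muscle genes and by 2.75 at the adipocyte genes, with 6 of the 10 past 2 log2 units. Thus KM59 and 53ca held adipocyte levels near those of the muscle-rich samples, with a median deviation of 1.41 in KM59 against 1.99 in KM58 and 1.71 in KM63. The whole adipocyte list ran from 1.09 to 4.23 in 2151R (NT2 at 3.86), from -4.47 to 1.99 in 2208L and from -4.30 to 1.27 in 2225L. DH677 had an adipocyte level of 1.81 and a muscle level of -2.73. As the values are centred, no marker can be said to be at 0. The tendon list had 0, 3 and 2 of 6 past that size, led by Tnmd, tenomodulin, with 0.60, 6.17 and 4.85. Thbs4 had -0.10, 3.64 and 3.24, Fmod -1.35, 2.34 and 1.88, and Scx -0.11, 0.38 and 1.29. Comp, a cartilage and tendon matrix protein, and Mkx were lower in all 3, with -0.32, -1.42 and -2.25 and with -0.18, -0.48 and -0.20. Of 6 cardiac genes 2 passed in KM58 and KM63 and 0 in NT2, and Myh6, the alpha heavy chain of heart that slow fibres of some muscles share, had rises of -1.15, 8.73 and 8.10. No gene of the epithelial (8) or endothelial (7) lists passed in any of the 3, and epithelial medians were 0.44, -0.15 and -0.00. Smooth muscle and macrophage lists had at most 2 genes past 2 log2 units, and the red cell list had 0. The part of these cell types in the muscle values was not tested.

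Outside the 43, the genes most like them were found by Pearson correlation over the 15 samples with the median deviation of the 43. The 10 highest were Lmod3 (0.994), Sypl2 (0.993), Myom2 (0.986), Art1 (0.983), Eef1a2 (0.983), Mypn (0.981), Asb11 (0.977), Mylk2 (0.976), Klhl31 (0.975) and Scn4a (0.972). The 15 samples share models and library number ranges, and 3 of them set most of each value. Over the 12 other samples, which also took part in the choice, the same genes had correlations from 0.821 (Klhl31) to 0.976 (Eef1a2). All 10 rose by at least 6.44 in NT2, 8.29 in KM58 and 7.74 in KM63, but high values there follow from how the genes were chosen. 6 of them are in the wider adult muscle list.

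Promoter windows were available for 31 of the 43 genes, as 37 windows of 300 bases, 250 before and 50 after a RefSeq start. CAGCTG was found on either strand in 48.6% of these windows and in 16.3% of all 32851 windows, and CANNTG, which includes it, in 81.1% and 72.3%. The MEF2 site was found in 21.6% and 3.19%, the CArG box in 10.8% and 1.63%, CATTCC in 29.7% and 14.7%, and TATAAA in 16.2% and 13.6%. Among fast genes (11 windows) and slow genes (8 windows), the shares were 45.5% and 37.5% for CAGCTG, 36.4% and 25% for CATTCC, 27.3% and 12.5% for the MEF2 site, and 36.4% and 12.5% for TATAAA. All 8 slow windows held a CANNTG. A match is a string of letters and not a bound site, windows of one gene overlap, and with so few windows the fast and slow shares were not compared further.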

How the data were processed

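RNA from 15 mouse mammary tumours was measured by sequencing of poly(A)-selected libraries, per the labels' protocols. The authors deposited 1 table of log2 values, centred gene by gene, for 17271 genes. The centring reference and the normalization are not given in the sources used here. STAR, Salmon and the build mm10 are named, per the submitters' processing notes, without roles. No counts were used and depth is unknown, so no counting interval is given. There were 0 unused columns of sample values.

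Samples were grouped by model and, in 2208L, by the mark in their labels. The 43 genes and all lists were chosen with earlier results of these data known. For group comparisons the package limma (version 3.58.1, R version 4.3.3) fitted linear models with moderated variances and no trend. One fit of all 15 samples served the models, and another of 7 samples the PBS and 3day nt groups. Adjustment was by Benjamini-Hochberg over all 17271 genes, at a threshold of 0.05. The fits without NT2, KM58 and KM63 were chosen after seeing the data. The limma step was tested on simulated data. Other values came from Python 3.11.15 with numpy 2.4.6, pandas 2.3.3 and matplotlib 3.10.9. Rises were counted at 2 log2 units (4-fold).

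The rule for named genes gave limma statistics for up to 3 called genes with the largest difference in each direction, or the 2 with the smallest p where none was called. Values by sample were given for a fixed set of 23 genes and for the largest and smallest rise of each role. Genes named beyond it were chosen after their values were seen. Promoter windows were matched by symbol to RefSeq (GRCm38.p6) and searched on both strands. Alternatives covered scaling, eBayes options, filters, reference samples and leaving out each sample. The result of 1 other marker list is not reported here.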

Additional observations from a re-analysis of the deposited data

Results flagged for a closer look

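In groups of 4 to 10 samples, the highest and lowest sample were tested for standing apart from the rest of the group (Dixon's gap against range, 95% level). Chance flags about 1 in 20 such groups, but that share is no yardstick here. NT2 was named muscle-rich because these 43 genes are high in it, so that it stands apart on them follows from the choice, and the values below are a description with no test. Of 108 groups of values looked at, 31 had a sample apart, all of them NT2 in 2151R, and none was in 2208L. At the 43 genes KM58 and KM63 were both high in 2208L, so the gap from the highest sample to the next was small. For that reason nothing is read from the lack of flags in 2208L. The groups share the same samples.

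The median deviation of NT2 lay apart over all 43 genes (3.95), the 14 fast genes (5.33), and the thick filament (3.24), thin filament (4.49), calcium handling (3.54) and energy (3.99) groups. Among thick filament genes NT2 stood apart at Myh4 (10.89), Mybpc1 (3.43), Mybpc2 (6.29) and Mylpf (5.43). Among thin filament genes it did so at Acta1 (6.94), Neb (5.86), Tnnt3 (6.58), Tnni2 (4.99) and Tnnc2 (7.44). Z-disc genes where it stood apart were Actn2 (2.91), Actn3 (5.92), Tcap (6.43), Myot (8.28), Xirp2 (7.48) and Klhl41 (4.13). For calcium handling they were Pvalb (9.45), Atp2a1 (8.12), Ryr1 (4.46), Cacna1s (6.39), Jph1 (1.58), Jsrp1 (3.01) and Trdn (8.64), and for energy metabolism Pygm (6.11), Pgam2 (4.94) and Ampd1 (5.56). Mybpc1 was the only slow gene among them. At Myot, Xirp2 and Trdn the other samples of 2151R share one repeated value, which by itself sets the gap.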

How the results depend on the processing

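The count of the 43 genes with a rise of at least 2 was 33 in NT2 and 43 in KM58 and KM63 under each scaling and reference tried except 53ca alone (34 in NT2), and fast genes kept a higher median rise than slow genes in each. The NT2 median over the 43 was 6.36 against the median reference, 6.90 against NT alone, 6.04 after quantile normalization and 6.19 without genes holding a repeated value. Its fast median was 8.37, 7.95 and 7.92 under the last 3, and fast minus slow was 7.59 without repeated-value genes, 7.25 with list means and 8.08 with further slow genes. Leaving out a reference sample gave 6.26 to 6.59, 7.84 to 8.29 and 7.54 to 7.90. Quantile normalization gave KM58 medians of 6.71 (all 43), 7.44 (fast) and 4.79 (slow), and KM63 6.57 (all 43) and 4.62 (slow). The KM63 slow median was 5.12 without repeated-value genes.

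Calls moved more. In 2151R against 2208L, 1 of the 43 was higher after quantile normalization (26.2% of all genes), and 3 were higher and 8 lower (23.6% and 19.2%) without NT2, KM58 and KM63. Leaving out 1 sample gave 0 to 2 higher (20.5% to 28.1% of all genes) and 1 to 2 lower (19.9% to 24.4%). In 2225L against 2208L, 4 were higher and 2 lower (15.9% and 17.6%) without those 3. Over the 12 other samples 2 were lower (14.3% to 19.5%) with 1 sample outside 2225L left out. Fits that leave 1 sample in 2225L are not counted for this list of 12. In 2225L against 2151R, 1 was higher and 1 lower after quantile normalization (20.8% and 20.2%), and 5 and 2 without those 3 (21.7% and 25.8%). With 1 sample outside 2225L left out, 0 to 1 were higher (20.4% to 23.7%) and 0 to 1 lower (22% to 26.7%). Over the 12 samples, 12 were higher with library prefix as covariate (20.1% of all genes). There, with 1 sample outside 2225L left out, 4 to 7 were higher (17.4% to 22.5%) and 2 lower (19.9% to 26.9%). In PBS against 3day nt, 6 were lower with centred samples (19.5%), 4 after quantile normalization (18.7%), 7 without repeated-value genes (17.4%), and 0 to 43 with 1 left out (5.89% to 18%). Over all genes, a minimum difference of 1 left 2585 higher and 2566 lower in 2151R against 2208L and 1206 and 1002 in PBS against 3day nt. The latter had 76 and 22 without KM58 and KM63, and 1362 to 3988 higher and 1017 to 3111 lower with 1 left out. Jsrp1, not called in 2225L against 2208L over all samples, ranged from -0.082 to 1.01 with 1 sample left out, with reversed signs of -0.082 without the ROSEN sample of 2208L, -0.05 without DH677 and -0.07 without DH678. The cause was not tested.

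No paired analysis was possible because the labels give no replicate numbers that pair samples across groups. The table holds no depth, 1 sample stands for T11 and 2 for 2225L, and values compare samples within a gene only.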

Other observations

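Of 13 listed myogenic regulators and developmental muscle genes, 8 were in the table. In NT2 1 of the 8 rose by at least 2 log2 units, Myf6, the regulator kept on in adult fibres, at 3.46 against a repeated -1.69 in the other 3 samples of 2151R. In KM58 and KM63 6 of 8 did, with medians of 5.61 and 4.59. Myog, myogenin, was 4.76 and 4.40 there, and the perinatal heavy chain Myh8 was 5.99 and 5.27. T-Vivo of 2225L had Myh8 at 5.0 and the embryonic heavy chain Myh3 at 3.70, above the 1.72 and 0.41 of Myh3 in KM58 and KM63.

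T11 had the highest values of 2 genes of muscle precursor cells. Myf5 was 10.22 in T11 against -0.64 to 3.42 in the other 14 samples, and Cdh15, M-cadherin, was 7.54 against -5.93 to 2.06. Other genes of that list did not follow as a set. Pax3 was -3.77 in T11, its lowest value, shared with every sample of 2151R. Myog (1.66) and Myf6 (1.62) were lower in T11 than in KM58 (4.76 and 7.16) but above T-Vivo (0.44 and 0.56). Myh3 (1.99) was lower in T11 than in T-Vivo (3.70) but above KM58 (1.72). Myh8 (3.63) was lower in T11 than in both, while Mef2c (1.62) was highest in T11. Its adult muscle genes lay in the middle of the samples (median deviation 0.23). T11 is 1 sample, so these values have no replicate check.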
